A study of Mus musculus with 8 samples.

Results

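The 8 genes described here are the inflammatory CC chemokine ligands of mouse chromosome 11: *Ccl2*, *Ccl7* and *Ccl12* in one cluster, and *Ccl5*, *Ccl9*, *Ccl6*, *Ccl3* and *Ccl4* in another. They were taken as the rows of the count table whose Ensembl identifiers carry these symbols, and they make up 8 of the 55487 genes in that table. All 8 passed the filter on low counts that left 15411 genes to test. Bone marrow-derived dendritic cells (BMDC) were grown with GM-CSF for 10 days from wild-type C57BL/6J mice, which the study's methods give as females aged 6 to 8 weeks. The control group, BMDC, was untreated. The other group, BMDC-fer, had been stained with CellTraceViolet, kept for 4 h with Jurkat cells (an established human T-cell leukemia line) that had received the ferroptosis inducer ML162 at 0.5 µM for 14 h, and sorted for cells that had engulfed them. No sort is described for the untreated cells, so the co-culture and the sort cannot be told apart, and no group had taken up cells killed in another way. There were 4 libraries per group. Their labels number them 1 to 4 without naming a mouse or a culture, and the study calls the samples independently collected.

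CC chemokines are small secreted proteins that attract leukocytes by binding G protein-coupled receptors. Their name comes from the pair of adjacent cysteines near the start of the mature protein. *Ccl2*, *Ccl7* and *Ccl12* encode monocyte attractants that signal mainly through CCR2. *Ccl3* and *Ccl4* encode MIP-1 alpha and MIP-1 beta, which attract monocytes, T cells and other leukocytes, *Ccl3* in part through CCR1. *Ccl5* encodes RANTES, which draws T cells, monocytes and other cells in part through CCR1 and CCR3. *Ccl6* and *Ccl9* encode rodent CCR1 ligands that myeloid cells make in large amounts.

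The coding sequences around the adjacent cysteine codons show what the members share and how they differ, which matters for counts of related genes. Each line gives 48 coding bases from GENCODE M21 transcripts (GRCm38), 5′ to 3′ on the coding strand, with the cysteine codons in capitals.
Ccl2: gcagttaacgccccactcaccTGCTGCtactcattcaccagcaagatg
Ccl7: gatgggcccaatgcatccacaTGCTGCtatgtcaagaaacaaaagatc
Ccl12: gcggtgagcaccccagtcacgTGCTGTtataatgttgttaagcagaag
Ccl3: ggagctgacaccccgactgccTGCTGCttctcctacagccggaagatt
Ccl4: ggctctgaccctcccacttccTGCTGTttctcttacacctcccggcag
Ccl5: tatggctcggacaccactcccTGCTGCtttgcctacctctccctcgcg
Ccl6: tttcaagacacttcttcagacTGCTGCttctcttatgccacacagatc
Ccl9: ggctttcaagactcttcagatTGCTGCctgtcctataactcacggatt

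Over whole coding sequences, identity over the aligned bases was 70.4% for *Ccl6* and *Ccl9*, 69.96% for *Ccl3* and *Ccl4*, 68.3% for *Ccl7* and *Ccl12*, 67.7% for *Ccl2* and *Ccl12* and 63.3% for *Ccl2* and *Ccl7*. No stretch of 50 bases in the longest annotated transcript of *Ccl2*, *Ccl7*, *Ccl12*, *Ccl3*, *Ccl4*, *Ccl5* or *Ccl6* occurred in a transcript of another gene. In *Ccl9*, 59 of 2957 such stretches (2%) did, and how the counting treated such reads is not given in the sources used here. No exon base of any of the 8 genes lay under an exon of another gene.

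Total counts were between 39326672 and 50532209 per library. The libraries of replicates 1 and 2 differed from those of replicates 3 and 4 in BMDC as in BMDC-fer, so values within each of these pairs of replicates stand beside the results. These pairs were seen in the data and are not groups of the study. Levels between libraries are given in CPM (counts scaled to library size by TMM). Calls required a Benjamini-Hochberg adjusted p (edgeR's quasi-likelihood test over the 15411 genes) no larger than 0.05 together with a log2 fold change of at least 0.58 in size.

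Of the 8 ligands, *Ccl2*, *Ccl3* and *Ccl9* were called higher in BMDC-fer and *Ccl5* was called lower, while *Ccl7*, *Ccl12*, *Ccl4* and *Ccl6* were not called. The background is 3.47% of tested genes called higher and 5.91% called lower, or 534 and 911 genes, and with library totals in place of TMM it is 300 and 1179 genes. With the replicate number as a block, 4 ligands were called higher (*Ccl2*, *Ccl7*, *Ccl12* and *Ccl3*, against 4.85% of all genes) and *Ccl5* was again called lower (against 8.13%). Every BMDC-fer library was above every BMDC library for *Ccl2*, *Ccl3* and *Ccl9*, as for 11.3% of tested genes, and below for *Ccl5*, as for 11.6%.

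**Figure D1:**
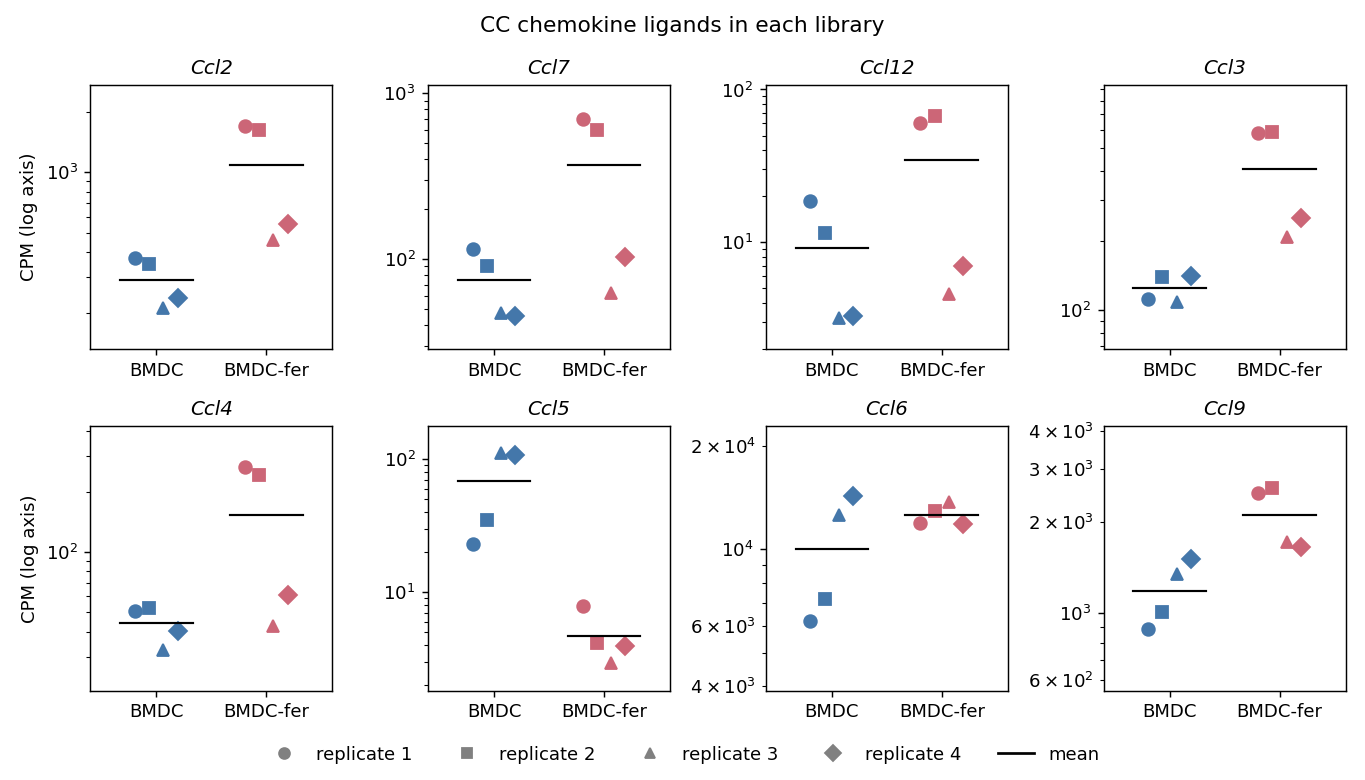
Level of each ligand in each of the 8 libraries, in CPM on a log axis of its own, with BMDC in blue, BMDC-fer in red, a marker for each replicate number and a bar at the group mean. The groups are apart for *Ccl2*, *Ccl3*, *Ccl5* and *Ccl9*, and in BMDC-fer replicates 1 and 2 are above replicates 3 and 4 for every ligand but *Ccl6*.

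Among the CCR2 ligands, *Ccl2*, the main attractant of inflammatory monocytes, was at 372, 349, 209.8 and 237 CPM in BMDC (replicates 1 to 4) and, in the same order, at 1697, 1627, 458 and 549.8 CPM in BMDC-fer. The groups did not overlap, and BMDC-fer replicates 1 and 2 stood far above replicates 3 and 4. *Ccl2* rose by 1.89 ± 0.46 on the log2 scale (SE, n = 4 per group, edgeR, adjusted p = 0.0333). Its adjusted p was 0.0105 with the replicate block. Leaving out any single BMDC library, or BMDC-fer replicate 1 or 2, ended the call, with edgeR adjusted p between 0.0505 and 0.0820.

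*Ccl7*, which encodes MCP-3, was at 114, 90.0, 47.3 and 45.5 CPM in BMDC and at 701, 603, 62.1 and 102 CPM in BMDC-fer. BMDC-fer replicates 3 and 4 lay within the range of the BMDC libraries, and replicates 1 and 2 lay far above it. The log2 fold change was 2.31 ± 0.76 (SE, n = 4 per group, edgeR, adjusted p = 0.0831), the highest of the 8 ligands, with the next widest error after *Ccl12*. With the replicate block it was 1.74 ± 0.44 and was called (edgeR, adjusted p = 0.0460).

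*Ccl12*, which encodes MCP-5, was the least abundant CCR2 ligand, at 18.7, 11.6, 3.19 and 3.29 CPM in BMDC and at 60.3, 66.9, 4.60 and 7.04 CPM in BMDC-fer. The groups overlapped, since BMDC-fer replicates 3 and 4 were below BMDC replicates 1 and 2. Its log2 fold change of 1.92 ± 0.95 was not called (SE, n = 4 per group, edgeR, adjusted p = 0.208). With the replicate block it was 1.49 ± 0.33 and was called (edgeR, adjusted p = 0.0332). Compared within replicate numbers, each of the 3 CCR2 ligands was higher in BMDC-fer in 4 of 4 pairs, with log2 ratios between 1.12 and 2.22 for *Ccl2*, 0.39 and 2.74 for *Ccl7*, and 0.53 and 2.53 for *Ccl12*.

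Of the MIP-1 ligands, *Ccl3* was at 112, 139.7, 108 and 141 CPM in BMDC and at 581, 587, 208 and 250.2 CPM in BMDC-fer. The BMDC libraries were close to each other, and each BMDC-fer library was above all of them. *Ccl3* rose by 1.70 ± 0.35 on the log2 scale (SE, n = 4 per group, edgeR, adjusted p = 0.0196; adjusted p = 0.0235 with the replicate block). Without BMDC replicate 3 its edgeR adjusted p was 0.0527, and without BMDC-fer replicate 2 it was 0.0506.

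*Ccl4* was at 50.9, 52.4, 32.5 and 40.2 CPM in BMDC and at 265, 243, 42.9 and 60.9 CPM in BMDC-fer. BMDC-fer replicate 3 lay among the BMDC libraries and replicate 4 just above them, while replicates 1 and 2 were far above. The log2 fold change of 1.80 ± 0.57 was close to that of *Ccl3* but was not called (SE, n = 4 per group, edgeR, adjusted p = 0.0716), and it was not called with the replicate block either (adjusted p = 0.0612). It was called without BMDC-fer replicate 3 (edgeR, adjusted p = 0.0395). *Ccl3* and *Ccl4* were each higher in BMDC-fer in 4 of 4 pairs of the same number, with log2 ratios between 0.83 and 2.37 for *Ccl3* and between 0.40 and 2.38 for *Ccl4*.

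*Ccl5* was the ligand that fell. It was at 22.97, 34.7, 110.0 and 107 CPM in BMDC and at 7.83, 4.16, 2.92 and 3.95 CPM in BMDC-fer. All BMDC-fer libraries were below all BMDC libraries, and among BMDC the replicates 3 and 4 were the high ones, the reverse of the order for *Ccl2*, *Ccl7* and *Ccl12*. The log2 fold change was −3.86 ± 0.59 (SE, n = 4 per group, edgeR, adjusted p = 0.00715; adjusted p = 0.0212 with the replicate block). It was called lower under each of the 16 alternative settings, including each of the 8 that left out a single library. The log2 ratio was below 0 in 4 of 4 pairs of the same number, between −5.23 and −1.55.

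The rodent CCR1 ligands were the most abundant. *Ccl6* was at 6205, 7175, 12581 and 14285 CPM in BMDC and at 11915, 12934, 13701 and 11839 CPM in BMDC-fer. BMDC replicates 1 and 2 were the low libraries, and the other 6 lay together. Its log2 fold change was 0.32 ± 0.29 (SE, n = 4 per group, edgeR, adjusted p = 0.480), and it was above 0 in 3 of 4 pairs of the same number.

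*Ccl9* was at 888, 1009, 1345 and 1509 CPM in BMDC and at 2504, 2593, 1713 and 1659 CPM in BMDC-fer. The groups did not overlap, though BMDC-fer replicates 3 and 4 were only a little above BMDC replicate 4. *Ccl9* was called higher with a log2 fold change of 0.83 ± 0.23 (SE, n = 4 per group, edgeR, adjusted p = 0.0492). That call was lost with the replicate block (adjusted p = 0.0865), with DESeq2's size factors in edgeR (adjusted p = 0.0514) and on leaving out any single library, with adjusted p between 0.0546 and 0.111.

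By an exact two-sided permutation test over log2(CPM + 0.05), *Ccl2*, *Ccl3*, *Ccl5* and *Ccl9* reached p = 0.0286, the smallest that 4 against 4 libraries can give. That value is reached whenever the groups do not overlap, so it restates their separation. The same separation held for 11.3% of tested genes upward and 11.6% downward. The exact permutation p was 0.143 for *Ccl7*, 0.286 for *Ccl12*, 0.114 for *Ccl4* and 0.371 for *Ccl6*.

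The size of the differences was not the same in both pairs of replicates. In replicates 1 and 2 alone, the log2 fold changes were 2.21 for *Ccl2*, 2.68 for *Ccl7*, 2.08 for *Ccl12*, 2.22 for *Ccl3*, 2.31 for *Ccl4*, 0.90 for *Ccl6* and 1.43 for *Ccl9*, and −2.25 for *Ccl5*. All 7 of the former were called higher there, as were 8.16% of all genes, and *Ccl5* was called lower, as were 11.3%. In replicates 3 and 4 alone, they were 1.19 for *Ccl2*, 0.84 for *Ccl7*, 0.85 for *Ccl12*, 0.89 for *Ccl3*, 0.53 for *Ccl4*, −0.060 for *Ccl6* and 0.25 for *Ccl9*, and −4.97 for *Ccl5*. There 4 ligands (*Ccl2*, *Ccl7*, *Ccl12* and *Ccl3*) were called higher, against 17.7% of all genes, and *Ccl5* lower, against 18.0%. The difference between the pairs of replicates was itself not tested. The pairs were picked by the likeness of these same libraries, so the spread within each is small by choice. Calls within a pair are therefore not separate support, and they were also more common over all genes than with all libraries.

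**Figure D2:**
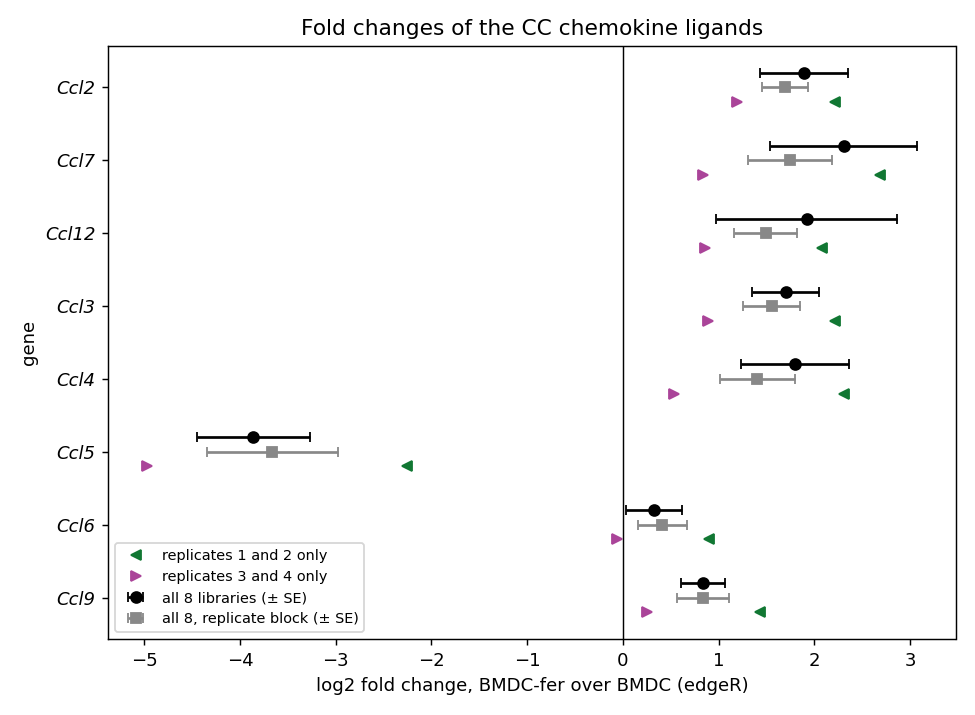
Log2 fold change of BMDC-fer over BMDC for each ligand, from all 8 libraries without a block (black, ± SE), with the replicate number as a block (grey, ± SE), and from replicates 1 and 2 only or replicates 3 and 4 only (triangles). For each ligand that is above 0 in the black points the value from replicates 1 and 2 is the larger one, and for *Ccl5*, at −2.25 and −4.97, the fall is larger in replicates 3 and 4.

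To compare levels between genes, CPM were divided by exon length in kilobases. In BMDC, *Ccl6* had a mean of 5605 ± 2214 CPM per kb (SD, n = 4), which placed it between rank 3 and rank 9 among protein-coding genes in the 4 libraries. It was followed by *Ccl9* at 390.1 ± 94.8, *Ccl2* at 257 ± 71.0, *Ccl3* at 164 ± 22.5, *Ccl7* at 92.7 ± 42.1, *Ccl5* at 71.5 ± 48.2, *Ccl4* at 66.6 ± 14.3 and *Ccl12* at 17.1 ± 13.9 CPM per kb. Only *Ccl6* stood clear of its neighbour by a wide margin. The libraries of *Ccl9* and *Ccl2* overlapped in level per kb, as did those of *Ccl3* and *Ccl7*, of *Ccl7* and *Ccl5*, of *Ccl5* and *Ccl4*, and of *Ccl12* and *Ccl5*.

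In BMDC-fer the order by level per kb was *Ccl6* (7018 ± 495, SD, n = 4), *Ccl2* (952 ± 589), *Ccl9* (695 ± 164), *Ccl3* (531 ± 268), *Ccl7* (458 ± 415), *Ccl4* (232 ± 178), *Ccl12* (64.7 ± 62.4) and *Ccl5* (4.91 ± 2.24). *Ccl6* was between rank 4 and rank 6 among protein-coding genes. *Ccl2*, *Ccl9*, *Ccl3* and *Ccl7* overlapped over their libraries, as did *Ccl7* and *Ccl4*, and *Ccl4* and *Ccl12*, and *Ccl5*, at 3.04 to 8.16 CPM per kb, lay below the lowest library of *Ccl12*, at 8.57.

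The 8 ligands together took between 0.853% and 1.56% of all counts in BMDC and between 1.41% and 1.80% in BMDC-fer, ranges that overlap. Of the ligands' own counts, *Ccl6* and *Ccl9* held 91.1% to 96.5% in BMDC and 81.3% to 95.2% in BMDC-fer. The CCR2 ligands held 6.49%, 5.09%, 1.80% and 1.74% in the BMDC libraries, in order of replicate number, and 13.9%, 12.3%, 3.24% and 4.55% in those of BMDC-fer. Each value was larger in BMDC-fer than in the BMDC library of the same number, but the groups overlapped. The share of *Ccl3* and *Ccl4* was 0.976% to 2.17% in BMDC and 1.55% to 4.77% in BMDC-fer, and that of *Ccl5* was 0.295% to 0.762% in BMDC and 0.0181% to 0.0442% in BMDC-fer.

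**Figure D3:**
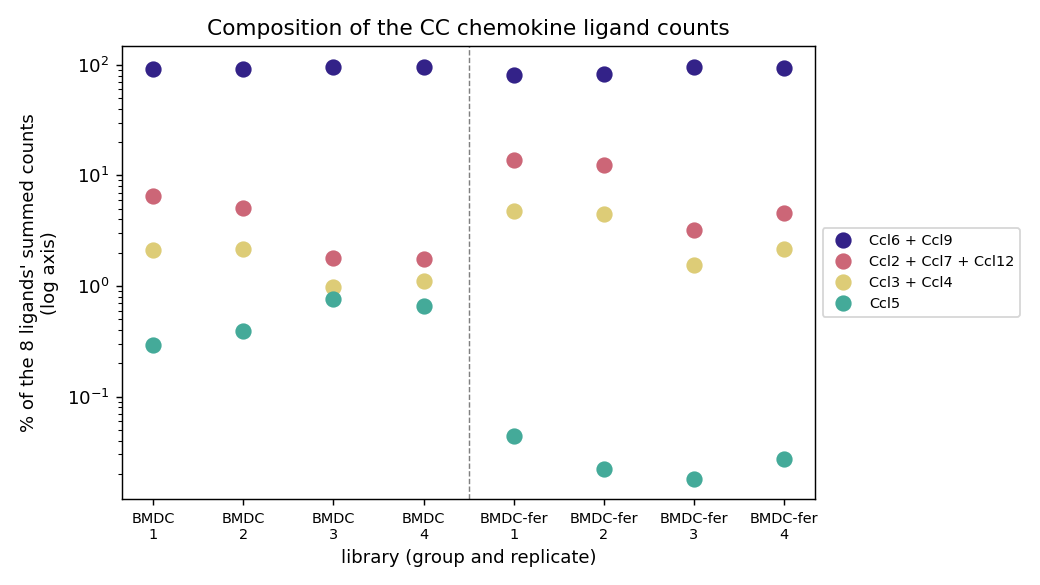
Percent of the summed counts of the 8 ligands taken by each group of ligands in each library, on a log axis, with BMDC to the left of the dashed line and BMDC-fer to the right. *Ccl6* and *Ccl9* hold at least 81.3% in every library, and the share of *Ccl5* is at least 0.295% in BMDC and at most 0.0442% in BMDC-fer.

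The log2 ratio of summed CCR2 ligand counts to *Ccl5* counts was 1.24 to 4.46 in BMDC and 7.38 to 9.11 in BMDC-fer, with no overlap. For *Ccl3* and *Ccl4* over *Ccl5* it was 0.36 to 2.83 in BMDC and 6.30 to 7.64 in BMDC-fer, again with no overlap. The log2 ratio of CCR2 to MIP-1 ligand counts differed little between the groups, at 0.66 to 1.63 in BMDC and 1.06 to 1.54 in BMDC-fer. Within the groups of ligands, reads of *Ccl2* per read of *Ccl7* were 3.26 to 5.20 in BMDC and 2.42 to 7.36 in BMDC-fer, reads of *Ccl3* per read of *Ccl4* were 2.21 to 3.501 and 2.19 to 4.85, and reads of *Ccl6* per read of *Ccl9* were 6.99 to 9.46 and 4.76 to 7.9995. These ratios are given as values without a test.

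In position (mm10/GRCm38, positions from GENCODE M21), *Ccl2* lies at chr11:82035571-82037453, *Ccl7* at chr11:82045712-82047525 and *Ccl12* at chr11:82101845-82103400, all on the plus strand and within 67.8 kb. The second cluster starts 1.422 Mb further on and spans 139 kb. It holds *Ccl5* (chr11:83525778-83530518), *Ccl9* (chr11:83572919-83578636), *Ccl6* (chr11:83587882-83593087) and *Ccl3* (chr11:83647844-83649355) on the minus strand and *Ccl4* (chr11:83662584-83664683) on the plus strand. Between and next to the CCR2 ligand genes, the eosinophil attractant *Ccl11* and the monocyte attractant *Ccl8* did not pass the filter, at means of 0.0347 and 0.0766 CPM in BMDC and 0.0386 and 0.0517 CPM in BMDC-fer, against a floor of 3 counts that corresponds to 0.0607 to 0.0785 CPM per library and covers counting error only.

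Of the other genes between the ligands or within 50 kb, 6 were tested, all in or beside the second cluster. *Heatr9*, the nearest to *Ccl5*, had a mean of 0.859 CPM in BMDC, a mean of 0.0942 CPM in BMDC-fer and a log2 fold change of −3.06 ± 0.91 (SE, n = 4 per group, edgeR, adjusted p = 0.0622). Its mean in BMDC-fer was close to the floor of 3 counts. The log2 fold change was −1.34 in replicates 1 and 2 alone and −8.62 in replicates 3 and 4 alone. *Taf15*, which encodes an RNA-binding protein, was at −0.55 ± 0.17 (edgeR, adjusted p = 0.0677). The transcript *E230016K23Rik*, on the strand opposite to *Ccl6* and spanning its gene without sharing an exon base, was at 0.081 ± 0.33 (edgeR, adjusted p = 0.888).

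Beyond *Ccl4*, *Wfdc18*, which encodes a whey acidic protein domain protein, was called higher at 1.31 ± 0.34 (SE, n = 4 per group, edgeR, adjusted p = 0.0405), from means of 1.88 to 4.68 CPM. Its abundant neighbour *Wfdc17* was at 0.77 ± 0.25 (edgeR, adjusted p = 0.0780), with means of 617 and 1053 CPM. *Rpl9-ps1*, a copy of a ribosomal protein gene whose reads could be split with others of its kind, was at 1.33 ± 0.38 (edgeR, adjusted p = 0.0530) from means of 0.118 and 0.305 CPM. Within 50 kb of *Ccl5*, *Heatr9* was thus the one tested neighbour with a log2 fold change below −1, though it was not called and was close to the floor in BMDC-fer. *Ccl9* on the other side was above 0.

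**Figure D4:**
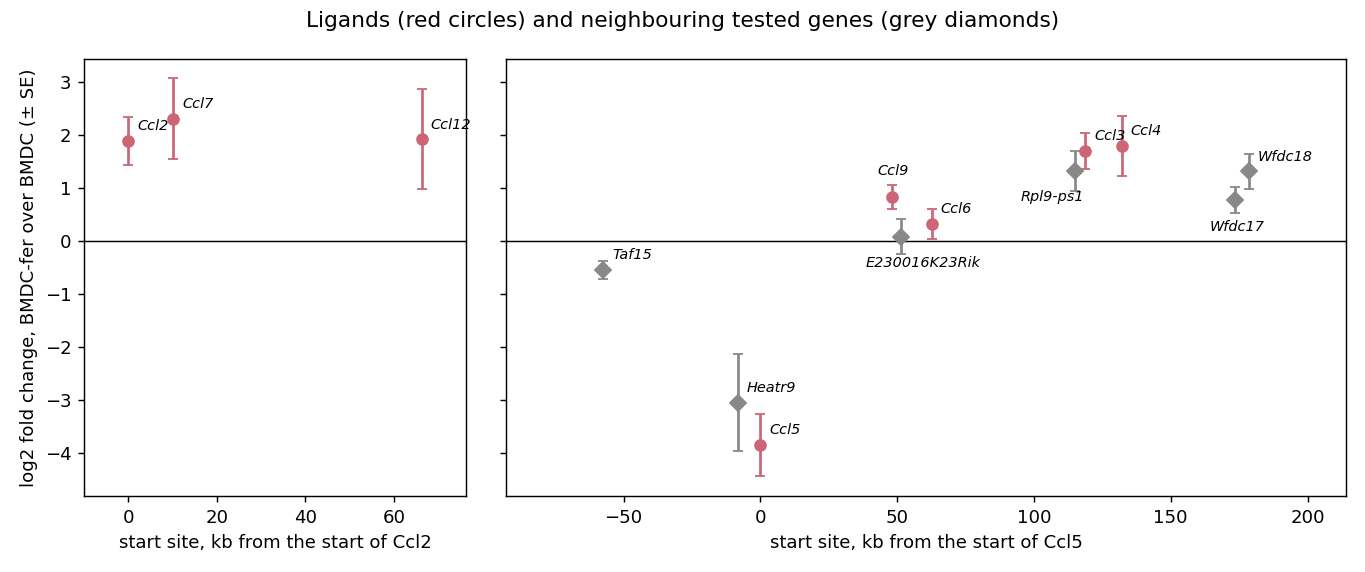
Log2 fold change of BMDC-fer over BMDC (± SE) for every tested gene in and within 50 kb of each cluster, against the distance of its start from the start of *Ccl2* (left) or *Ccl5* (right) in kb. Ligands are red circles and other genes grey diamonds. *Ccl5* and *Heatr9* lie at −3.86 and −3.06, and all ligands on the right of *Ccl5* lie above 0.

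Promoter sequences of 4 of the 8 ligands, *Ccl12*, *Ccl3*, *Ccl6* and *Ccl9*, were matched in RefSeq (GRCm38.p6). The 250 bases before each start are shown because these ligands stand for 3 of the 4 groups of ligands. They were searched on both strands for the binding motifs of NF-kB (GGGNNNNNCC), IRF (GAAANNGAAA), AP-1 (TGANTCA), C/EBP (TTGCNNAA) and PU.1 (GAGGAAG) and for TATAAA. Capitals mark matches, and the lines run 5′ to 3′ on the strand of the gene.
Ccl12 (chr11:82101595-82101844, plus strand): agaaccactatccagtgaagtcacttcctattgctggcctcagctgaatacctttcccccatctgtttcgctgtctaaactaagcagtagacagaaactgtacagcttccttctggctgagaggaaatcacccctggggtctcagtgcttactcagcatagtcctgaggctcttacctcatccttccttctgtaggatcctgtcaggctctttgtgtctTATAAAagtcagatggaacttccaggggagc
Ccl3 (chr11:83649379-83649628, minus strand): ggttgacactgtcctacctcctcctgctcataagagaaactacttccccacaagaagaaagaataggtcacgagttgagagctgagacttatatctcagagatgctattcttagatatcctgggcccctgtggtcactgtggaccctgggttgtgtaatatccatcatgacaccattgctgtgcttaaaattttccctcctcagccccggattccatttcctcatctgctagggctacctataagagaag
Ccl6 (chr11:83593088-83593337, minus strand): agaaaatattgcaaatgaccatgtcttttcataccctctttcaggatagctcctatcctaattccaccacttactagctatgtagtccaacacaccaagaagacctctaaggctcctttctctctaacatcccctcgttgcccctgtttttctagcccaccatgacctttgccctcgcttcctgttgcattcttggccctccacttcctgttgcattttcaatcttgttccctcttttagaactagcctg
Ccl9 (chr11:83578637-83578886, minus strand): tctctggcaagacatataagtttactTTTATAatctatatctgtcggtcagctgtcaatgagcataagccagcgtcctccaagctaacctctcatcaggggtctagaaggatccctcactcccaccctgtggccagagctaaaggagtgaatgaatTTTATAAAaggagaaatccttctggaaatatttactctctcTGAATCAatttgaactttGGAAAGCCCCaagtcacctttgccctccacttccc

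*Ccl9* held 1 match to the NF-kB motif, 35 to 26 bases before the start, and 1 to the AP-1 motif, 53 to 47 bases before it. It also held TATAAA or its reverse complement at 3 places, 2 of which overlap. *Ccl12* held TATAAA 31 to 26 bases before its start. *Ccl3* and *Ccl6* held none of the 6 motifs in this window. Over all 32851 promoters of the table, windows of the same length held the NF-kB motif in 45.8%, TATAAA in 12.4%, PU.1 in 10.6%, C/EBP in 9.56%, AP-1 in 6.75% and IRF in 2.98%. A match is a description of the letters and not a measured site.

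The other CC ligands on the list numbered 13, of which 5 were tested. Their calls stand beside 3.47% of all tested genes called higher and 5.91% called lower. *Ccl22*, a ligand of CCR4 made by mature dendritic cells, was the one called and fell, from 527, 499, 565 and 591 CPM in BMDC to 282, 131, 43.7 and 43.8 CPM in BMDC-fer. The groups were apart, and its log2 fold change was −2.12 ± 0.57 (SE, n = 4 per group, edgeR, adjusted p = 0.0454). The call held on leaving out BMDC-fer replicate 1 (adjusted p = 0.0121) and was lost on leaving out any other library, at most at adjusted p = 0.104.

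*Ccl17*, the other CCR4 ligand, had a log2 fold change of −0.79 ± 0.69 (SE, n = 4 per group, edgeR, adjusted p = 0.472), which the replicate block made −1.17 ± 0.26, called lower (edgeR, adjusted p = 0.0344). *Ccl24*, a CCR3 ligand, was at 0.93 ± 0.79 (edgeR, adjusted p = 0.455) and *Ccl25*, a CCR9 ligand, at 0.31 ± 0.17 (edgeR, adjusted p = 0.259). Among the 5 tested ligands outside the 8, 0 were called higher by edgeR, 0 had an unadjusted p under 0.05 with a higher level in BMDC-fer, and DESeq2 called 0 higher. The median log2 fold change of these 5 ligands was −0.35, beside 0.00069 over all tested genes.

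Of 8 listed CC receptors, decoys and receptor-like genes, not all of which bind these ligands, 4 were tested. By edgeR 0 were called with or without the block. At an unadjusted p under 0.05 edgeR gave 2 of them, and DESeq2 called 1. *Ccr1* was at 333, 365, 413 and 397 CPM in BMDC and at 423, 463, 614 and 579.8 CPM in BMDC-fer, with a log2 fold change of 0.46 ± 0.15 (SE, n = 4 per group, edgeR, adjusted p = 0.0751). The groups did not overlap for *Ccr1*. *Ccr2*, the receptor for *Ccl2*, *Ccl7* and *Ccl12*, was at −0.046 ± 0.29 (edgeR, adjusted p = 0.928), and the chemerin receptor *Ccrl2* at −0.75 ± 0.46 (edgeR, adjusted p = 0.306).

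All 17 listed transcription regulators of these genes were tested, and 1 was called higher and 2 lower. Over all tested genes 3.47% were called higher and 5.91% lower. With the replicate block 2 of the 17 were called higher and 2 lower, against 4.85% and 8.13% of all genes. *Jun*, a subunit of AP-1, rose by 0.70 ± 0.16 (SE, n = 4 per group, edgeR, adjusted p = 0.0288). *Rel*, the NF-kB subunit c-Rel, fell from 101, 98.8, 282 and 260.4 CPM in BMDC to 61.8, 47.5, 32.6 and 36.5 CPM in BMDC-fer, a log2 difference of −2.06 ± 0.40 (edgeR, adjusted p = 0.0160). As for *Ccl5*, the groups were apart and BMDC replicates 3 and 4 were the high ones.

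*Nfkb1*, the NF-kB subunit p50 and its precursor, fell by 0.69 ± 0.19 on the log2 scale (SE, n = 4 per group, edgeR, adjusted p = 0.0470). *Relb*, another subunit, was at −0.99 ± 0.32 (edgeR, adjusted p = 0.0792). The interferon-response regulator *Irf7*, at 0.84 ± 0.70 (edgeR, adjusted p = 0.450), was not called.

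The calls of these regulators rested on single libraries to differing degrees. *Jun* kept its call on leaving out BMDC replicate 4 alone, and *Nfkb1* on leaving out BMDC-fer replicate 1 alone, with edgeR adjusted p up to 0.0801 and 0.127 over the other libraries. *Rel* lost it on leaving out BMDC-fer replicate 4 alone (adjusted p = 0.0593). The median log2 fold change of the 17 regulators was −0.052.

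Of 7 cytokines that induce or accompany these chemokines, 4 were tested and 0 were called by edgeR, against 1 with the replicate block. At an unadjusted p under 0.05 edgeR gave 0 of them, and DESeq2 called 0. *Tnf* was at 79.5, 56.0, 20.1 and 20.7 CPM in BMDC and at 163, 126, 48.6 and 54.2 CPM in BMDC-fer, with replicates 1 and 2 the higher ones in both groups, as for *Ccl7* and *Ccl12*. Its log2 fold change was 1.15 ± 0.55 (SE, n = 4 per group, edgeR, adjusted p = 0.197), while the fit with the replicate block gave 1.22 ± 0.10 (edgeR, adjusted p = 0.00445).

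*Il1a* was at 0.40 ± 0.48 (SE, n = 4 per group, edgeR, adjusted p = 0.602), from 1.95 in replicates 1 and 2 alone to −0.82 in replicates 3 and 4 alone. *Il1b* was at 0.31 ± 0.39 (edgeR, adjusted p = 0.627) and *Il6* at −0.90 ± 0.58 (edgeR, adjusted p = 0.323).

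**Figure D5:**
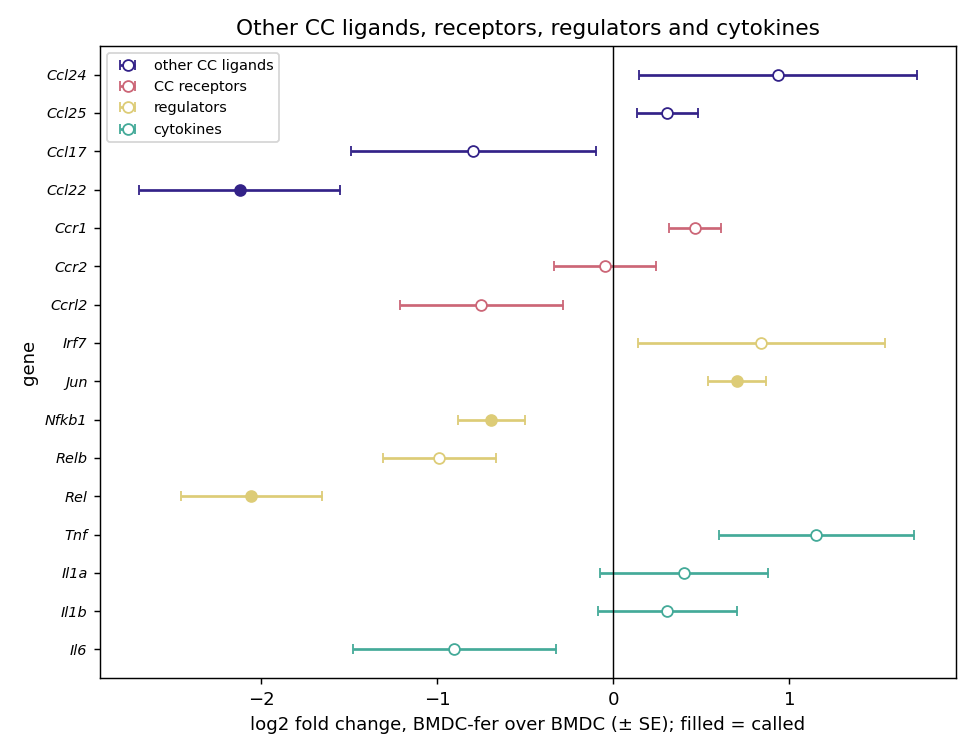
Log2 fold change of BMDC-fer over BMDC (± SE) for the other CC ligands, CC receptors, regulators and cytokines named in the text, with filled points for genes called. *Ccl22*, *Rel* and *Nfkb1* are the filled points below 0, at −2.12, −2.06 and −0.69, and *Jun* the one above, at 0.70.

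Levels of cell type markers differed between the groups, and the sums of the mature dendritic cell, neutrophil, eosinophil, mast cell and basophil, and T and NK cell markers did not overlap. Calls of markers stand beside 3.47% of all tested genes called higher and 5.91% called lower, or 4.85% and 8.13% with the replicate block. The summed level of 7 markers of mature dendritic cells was 1077 to 1162 CPM in BMDC and 225 to 568 CPM in BMDC-fer, and 3 of the 7 (*Ccr7*, *Fscn1* and *Ccl22*) were called lower. With the replicate block 4 were, *Cd83* among them. A large part of this sum was *Ccl22*, at 499 to 591 CPM in BMDC and 43.7 to 282 CPM in BMDC-fer. *Ccl22* and *Relb* also stand in the lists above, so these are not separate results. For 10 neutrophil markers the summed level was 46.2 to 265 CPM in BMDC and 14.1 to 44.6 CPM in BMDC-fer, with 5 called lower and none higher, and 9 lower with the replicate block. For 10 dendritic cell markers it was 7578 to 17630 CPM in BMDC and 3448 to 8611 CPM in BMDC-fer, ranges that overlap, with *Flt3* and *Irf4* called lower and *Itgax*, which encodes CD11c, between 748 and 1407 CPM in every library. With the replicate block 6 of these 10 were called lower, *Zbtb46* and the MHC class II genes *H2-Ab1*, *H2-Aa* and *Cd74* among them, and *Clec9a* was called higher.

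The summed level of 10 macrophage and monocyte markers was 2346 to 3526 CPM in BMDC and 2664 to 4604 CPM in BMDC-fer, ranges that overlap, with *Adgre1* called lower and 7 of the 10 at a positive log2 fold change without a call. Their median log2 fold change was 0.43, and the groups did not overlap for *Csf1r*, which was higher in BMDC-fer. For 5 eosinophil markers the sum was 30.4 to 43.1 CPM in BMDC and 16.6 to 24.6 CPM in BMDC-fer, and both that were tested, *Prg2* and *Siglecf*, were called lower, *Prg2* alone with the replicate block. For 8 mast cell and basophil markers it was 36.5 to 68.5 CPM in BMDC and 14.998 to 35.1 CPM in BMDC-fer, with 4 tested and 0 called by edgeR, against 3 lower at an unadjusted p under 0.05, 2 called lower by DESeq2 and 1 (*Cpa3*) with the block.

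T and NK cells are other known sources of *Ccl5*, and their 12 markers summed to 2.63 to 6.52 CPM in BMDC and 0.969 to 1.66 CPM in BMDC-fer, with *Gzma* at 0 in all libraries, *Ncr1* and *Trbc2* at 0 in BMDC-fer, 2 tested and *Lck* called lower. Among 14 genes that respond early to handling, *Jun* and *Egr1* were called higher, and the sum of the 14 was 793 to 1800 CPM in BMDC and 1266 to 1811 CPM in BMDC-fer, ranges that overlap. Mitochondrial genes took 3.68% to 4.34% of counts in BMDC and 3.83% to 4.95% in BMDC-fer. The replicate block gave 2 T and NK cell markers called lower, *Cd3g* (edgeR, adjusted p = 0.00702) joining *Lck*. It gave 3 of the 14 early-response genes called higher, *Hspa1a* (edgeR, adjusted p = 0.0167) joining *Jun* and *Egr1*. The part of these marker, early-response and mitochondrial values in the ligands' differences was not tested. In these bulk libraries fewer cells of a type and less RNA per cell cannot be told apart.

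By rank of Pearson's r of log2 CPM over the 8 libraries among genes with a mean of at least 5 CPM, the patterns most like *Ccl2* were those of *Bcl2l1* (r = 0.991), *Nle1* (0.990) and *Mybbp1a* (0.987). For *Ccl3* they were *Slc31a1* (r = 0.990), *Usb1* (0.989) and *Coprs* (0.983), for *Ccl5* they were *Asxl1* (r = 0.995), *Cep85l* (0.989) and *Uvrag* (0.988), and for *Ccl6* they were *Npc2* (r = 0.993), *Tyrobp* (0.989) and *Tpd52* (0.987). The 8 points of each comparison share their libraries and fall by group and by pair of replicates, so the values only describe likeness.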

How the data were processed

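Mouse transcripts were measured by bulk mRNA sequencing in 4 BMDC and 4 BMDC-fer libraries, grouped and numbered by their labels. The authors mapped filtered reads with HISAT2 (build mm10 per the labels), counted them per gene with featureCounts on both genomes, human and mouse, and deposited the raw counts of mouse genes, used here unchanged. The use of strand and of reads mapping to several places is not given in the sources used here, and human counts were not analysed here.

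Symbols and positions came from GENCODE M21 (GRCm38, the assembly that mm10 names) for 55141 of 55487 genes. Counts were fitted in R 4.3.3 with edgeR 4.0.16 (TMM, filterByExpr with a count minimum of 10, glmQLFit and glmQLFTest) on all 8 libraries without a covariate, and SE is the absolute log2 fold change divided by the square root of F. DESeq2 1.42.0, other size factors, other filters, a replicate block, each library left out and each pair of replicates alone were the alternatives. The fits were tested on simulated data. Those were drawn without the split between replicates 1 and 2 and replicates 3 and 4, so that test does not cover the split. The floor of 3 counts covers counting error only, because several reads can stem from one molecule and no identifiers tell them apart. No pair of libraries of the same group agreed within sampling noise (chi-square per gene at least 8.24). The p-values set group differences against the spread between these samples. Without a block that spread includes the split between replicates 1 and 2 and replicates 3 and 4. Same-numbered BMDC and BMDC-fer libraries deviated together from their group means (r across genes of 0.44, 0.35, 0.31 and 0.34 for replicates 1 to 4). The block is therefore given where it changes a call among the ligands or a count of calls in a list. Differently numbered libraries did so too within replicates 1 and 2 (r of 0.19 and 0.29) and within replicates 3 and 4 (0.34 and 0.38, above the values of BMDC replicates 3 and 4 with their own numbers), while r was −0.39 to −0.28 across these pairs. The block thus follows mainly the split between replicates 1 and 2 and replicates 3 and 4, and the labels do not say what the numbers mark.

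The ligands and all lists were chosen with earlier results of these data known, and the alternatives for the related genes were added after seeing the data. Named are all 8 ligands, the other CC ligands and receptors called or at 1 CPM or more in either group, the 3 highest and 3 lowest fold changes of the regulators and cytokines, and the tested genes within 50 kb of the ligands. Marker genes and *Ccl8* and *Ccl11* were named in addition, after their values were seen. Some genes that these rules cover are not reported here. Coding sequences were aligned with Biopython 1.88.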

Additional observations from a re-analysis of the deposited data

How the results depend on the processing

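Among the 8 ligands, 3 were called higher without a block and 4 with the replicate block, 5 by DESeq2, 7 in replicates 1 and 2 only and between 0 and 3 on leaving out one library. The block brought in *Ccl7* and *Ccl12* and ended the call of *Ccl9*, and it changed no other call among the ligands. Among the related genes its calls included *Ccl17* and *Tnf*, which were not called without it, and it ended no call. One ligand, *Ccl5*, was called lower in every setting. Of 16 alternatives, the call as higher held in 14 for *Ccl3*, 10 for *Ccl2* and 5 for *Ccl9*. The sign of *Ccl6* turned in replicates 3 and 4 only (−0.060). Because the pairs of replicates were picked from these libraries, calls within them are not separate support.

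Among the other CC ligands, receptors, regulators and cytokines, 1 was called higher, against 4 by DESeq2, 2 without a filter on low counts, 3 with the replicate block, 8 in replicates 1 and 2 only, 7 in replicates 3 and 4 only, 2 by adjusted p alone and between 0 and 2 on leaving out one library. In the same lists 3 were called lower, against 10 in replicates 3 and 4 only and between 0 and 4 on leaving out one library. In replicates 3 and 4 only the log2 fold change turned for *Ccr2* (0.21), *Il1a* (−0.82) and *Il1b* (−0.16), and in replicates 1 and 2 only for *Ccrl2* (0.71) and *Il6* (0.69). That of *Ccr2* also turned with the replicate block (0.016) and without BMDC replicate 2 (0.31), BMDC-fer replicate 3 (0.031) or BMDC-fer replicate 4 (0.030), with a range of −0.23 to 0.31 on leaving out one library. That of *Il1b* turned without BMDC-fer replicate 1 (−0.019), with a range of −0.019 to 0.57. The cause was not tested. Over all genes, 534 were called higher and 911 lower, 747 and 1253 with the replicate block, 889 and 1525 by DESeq2, 300 and 1179 with library totals only, 1285 and 1777 in replicates 1 and 2 only, 2779 and 2825 in replicates 3 and 4 only, and between 194 and 543 higher and between 371 and 897 lower on leaving out one library. The genes tested differed: 15411 without and with the block and with library totals only, and 28784 with DESeq2. They were 15749 in replicates 1 and 2 only, 15693 in replicates 3 and 4 only and 15647 to 15761 on leaving out one library. With library totals only, the median log2 fold change of all genes was −0.090. The lowest value of a ligand, 2.92 CPM for *Ccl5* in BMDC-fer replicate 3, lay above the floor of 3 counts, at most 0.0785 CPM.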
